A study of Mus musculus with 2 samples.

Results

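The 162 genes described here are the abundant antisense noncoding RNAs of nucleoplasmic RNA from mouse bone-marrow-derived macrophages. They were chosen from 55536 mouse genes by annotation and by level. Each has an antisense transcript and no protein-coding or lincRNA transcript in the GENCODE release M21 annotation, and each had 100 or more expected counts in both libraries. Of 3067 genes that meet the annotation part, 2903 were under 100 counts in at least 1 library, and 1405 of those had 0 counts in both. Zfas1 and Snhg14 passed the minimum but were left out by name, since they belong with the snoRNA host genes. The counts chose the members, so their levels are descriptions and none was tested.

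The series holds 1 group with 2 libraries. The cells were primary macrophages of strain C57BL/6J, with no genetic change named in the labels, exposed to 100 ng/ml lipid A, the part of lipopolysaccharide that TLR4 senses, for 20 min. RNA came from the soluble part of the nucleus, and ribosomal RNA had been removed. RNA input was 1 µg for replicate 1 and 500 ng for replicate 2, so input and replicate cannot be told apart. Both libraries carry 1 donor identifier, and separate cultures or animals are not named in the labels, so the spread between the libraries may be technical. No unstimulated library was analysed here, so no response to lipid A was measured.

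The libraries held 18194818 and 18667509 counts on mouse genes, and a count of 0 allows up to 0.165 and 0.161 CPM, a count relative to the library total (from 3 counts in a library, counting error only). Where a pair of values stands without names, replicate 1 precedes replicate 2. All 10 listed macrophage markers were at 1 TPM or more in both libraries, with summed levels of 3774 and 3447 TPM, where TPM is a level per transcript length. None of the listed neutrophil, B cell, T and NK cell or stromal markers reached 1 TPM in both. The sums were 3.59 and 5.12 TPM for the 8 neutrophil markers, and at most 0.61 TPM in either library for each other of these lists. Ly6g, Pax5, Cd3e, Cd3g, Ncr1 and Klrb1c were at 0 in both. In bulk RNA, fewer cells with a transcript and less of it per cell cannot be told apart.

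An antisense RNA is transcribed from the strand opposite another gene, often a coding one. Some act in cis on the gene or cluster they overlap, as in imprinted regions, where a long antisense RNA from 1 parental allele silences neighbours on that chromosome. Others share a bidirectional promoter with their neighbour, host a small RNA, or have no assigned role. Many are enriched in the nucleus. The authors' strand setting was not given in the sources used. Reads of an antisense gene and of exons or introns on the other strand therefore cannot be told apart with certainty. Of the 162 members, 111 had at least 1 exon base on an opposite-strand exon and 51 had none. An opposite-strand intron can still cover exons of those 51, and only 3 members had no opposite-strand gene of any class.

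Some members hold the gene of a small RNA within their span, which includes both exons and introns. Mature miRNAs annotated within 4 members, on the same strand, are given from RefSeq (GRCm38), with the seed, bases 2 to 8, in capitals. Both arms of miR-223, a microRNA typical of myeloid cells, lie in F630028O10Rik at X:96242842-96242864 and X:96242884-96242905 (plus strand).
mmu-miR-223-5p: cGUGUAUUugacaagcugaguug
mmu-miR-223-3p: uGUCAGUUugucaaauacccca
The other hosts were Gm47079 (miR-1900), 4921516A02Rik (miR-6410) and Tmcc3os (miR-7211).
mmu-miR-1900: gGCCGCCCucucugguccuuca
mmu-miR-6410: uGGCUCAGggacuacucugugc
mmu-miR-7211-5p: uCUUUCCCucugccacuccacc
No seed was shared between these 5. The 4 miRNA genes themselves had 0 counts in both libraries, so only the long host transcripts were measured. Gm20632 and Gm20633 also hold a small RNA gene each, Gm47311 and Gm47313.

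Promoter windows, from 250 bases before to 50 after the RefSeq start (GRCm38.p6), were matched for 64 members by symbol, chromosome and strand. The RefSeq start need not be the GENCODE start. In the direction of transcription, the GENCODE start lay at -28244 bases from it for Gm10634, -3546 for Gm20234 and 1869 for Gm40578. The offset was -859 for Tug1, -381 for Gm26885, -2 for Kcnq1ot1, and 0 for F630028O10Rik and Airn. Windows of the 3 best-counted members that matched are shown because the starts differ widely in CpG dinucleotides, which are in capitals. The window of Kcnq1ot1 (chr7:143296498-143296797, minus strand) held 9.
Kcnq1ot1: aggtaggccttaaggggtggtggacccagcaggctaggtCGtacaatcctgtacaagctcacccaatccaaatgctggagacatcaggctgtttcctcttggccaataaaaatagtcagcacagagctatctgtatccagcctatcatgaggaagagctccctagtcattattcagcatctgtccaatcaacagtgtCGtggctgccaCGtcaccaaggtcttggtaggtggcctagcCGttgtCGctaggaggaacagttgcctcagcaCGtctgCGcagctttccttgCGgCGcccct
The window of F630028O10Rik (chrX:96239676-96239975, plus strand) held 2.
F630028O10Rik: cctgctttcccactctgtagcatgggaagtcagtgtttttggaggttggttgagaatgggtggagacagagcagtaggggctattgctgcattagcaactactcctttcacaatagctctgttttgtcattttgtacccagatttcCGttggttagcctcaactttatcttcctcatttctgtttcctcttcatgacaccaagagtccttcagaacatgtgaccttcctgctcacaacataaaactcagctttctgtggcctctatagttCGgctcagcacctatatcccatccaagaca
The window of Tug1 (chr11:3648765-3649064, minus strand) held 37, and its RefSeq start lies inside the GENCODE gene.
Tug1: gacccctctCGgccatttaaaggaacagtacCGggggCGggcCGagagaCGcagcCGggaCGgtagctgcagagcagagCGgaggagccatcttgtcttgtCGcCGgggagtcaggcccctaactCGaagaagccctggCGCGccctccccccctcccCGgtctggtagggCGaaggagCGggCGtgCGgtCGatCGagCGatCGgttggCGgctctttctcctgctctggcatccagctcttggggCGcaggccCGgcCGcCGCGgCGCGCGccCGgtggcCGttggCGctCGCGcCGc

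Across the 76 windows of the 64 members the median was 7.5 CpG, against 7 over 32851 mouse windows. By arrangement the median was 10 CpG for 15 members that overlap their coding partner head-to-head, 16.5 for 22 tail-to-tail and 5.0 for 24 that lie inside the partner. The NF-kB consensus matched in 12 of 76 member windows (15.8%), against 8.46% of all windows. The AP-1 motif TGANTCA matched in 3 (3.95%), against 7.81%, and the C/EBP motif TTGCNNAA in 11 (14.5%), against 10.8%. The PU.1 motif GAGGAAGT matched in 2 (2.63%), against 3.20%, the TATA motif TATAAA in 10 (13.2%), against 13.6%, and the CRE motif TGACGTCA in 0, against 1.79%. Both strands were searched, and a match is a description of letters. Some windows lie away from the GENCODE start of the member, so these values describe RefSeq windows.

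Together the members took a small part of the library. They held 0.493% of counts in replicate 1 (exact 95% interval 0.489 to 0.496) and 0.464% in replicate 2 (0.461 to 0.467). A single gene, Kcnq1ot1, held 17.5% and 19.2% of the members' counts, and the 10 best-counted members held 45.8% and 49.8%. Per length the picture was flatter, with a median over members of 5.96 ± 1.09 TPM (SD, n = 2). The same median was 6.88 ± 0.933 TPM over 140 lincRNA genes and 12.6 ± 2.48 TPM over 8274 coding genes that passed the same minimum. Member means ran from 1.015 to 132.5 TPM, with quartiles of 3.34 and 11.9 TPM. In both libraries 160 of the 162 reached 1 TPM, and the mean reached 10 TPM in 52. Members came from every autosome and from X, with 14 on chromosome 7 and 3 on X.

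**Figure D1:**
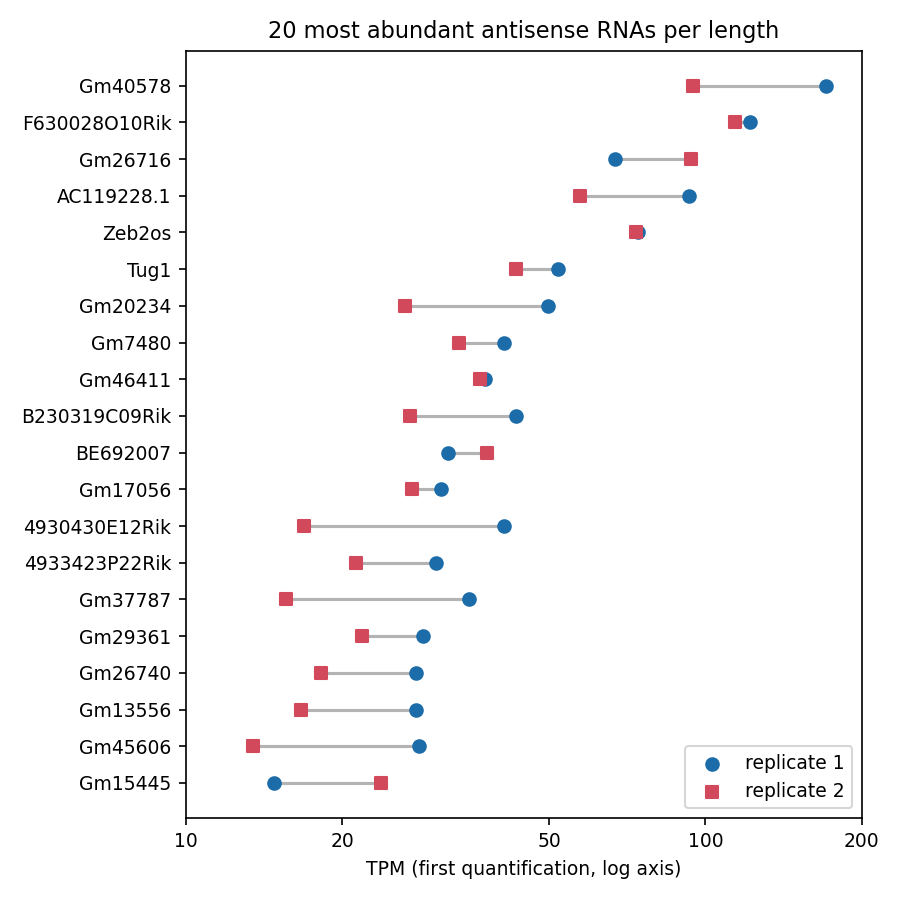
Level per length (TPM of the first quantification, log axis) of the 20 members with the highest mean, 1 point per library, circles for replicate 1 and squares for replicate 2, joined by a line. Replicate 2 is the lower library for 17 of the 20, the exceptions being Gm26716, BE692007 and Gm15445.

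In the first quantification the most abundant member per length was Gm40578 on chromosome 12 (111450405 to 111500840, mm10, minus strand), at 170.5 and 94.5 TPM in replicates 1 and 2. It meets Tnfaip2, a TNF-inducible gene whose protein shapes membrane protrusions, tail-to-tail. All of its counts were assigned to transcript 202. In the second quantification its mean was 70.9 TPM, below Zeb2os at 339.7 TPM and Gm20234 at 132 TPM. F630028O10Rik, the miR-223 host on chromosome X (96239926 to 96243636, plus strand), was at 122 and 114 TPM, from 6296 and 7181 counts. Its libraries differed least among the 3 highest members. No coding gene lies opposite it, and its 2 isoforms took 63.7% and 36.3% of its counts in replicate 1, and 64.7% and 35.3% in replicate 2.

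AC119228.1, inside the gene of the checkpoint ligand PD-L1 (Cd274) and on its opposite strand, was at 92.9 and 57.3 TPM, with 6077 and 5047 counts. Cd274 itself was at 111.5 and 99.3 TPM, so the strands were within 2-fold in both libraries. Zeb2os, which lies inside Zeb2, a zinc-finger factor of macrophage identity, was at 74.3 and 73.5 TPM, against 721 and 497 TPM for Zeb2. In the second quantification Zeb2os was at 263 and 417 TPM, against 358 and 505 TPM for Zeb2. The mean log2(TPM + 0.1) difference was -0.36 there and -3.02 in the first. Counts of Zeb2os were 2208 and 2748 in the second, against 1184 and 1335 in the first. Transcript 203, of only 61 bases, took 223 and 283 of the second counts and 0 of the first. The part of this short transcript in the TPM gap was not tested. The exons of Zeb2os overlap those of Zeb2 over 32.8% of their bases. Gm26716 was at 67.1 and 93.9 TPM, but 100% of its exon bases lie on opposite-strand exons of Sdc3, a cell-surface proteoglycan gene at 89.8 and 73.7 TPM. The second quantification gave Gm26716 only 2.13 and 21.3 TPM, so its level turned with the quantification. The cause of this gap was not tested.

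Tug1, a long noncoding RNA first described as a taurine-induced transcript of the retina, was at 51.9 and 43.1 TPM. It starts 482 bases from the start of Morc2a, which encodes an ATPase of gene silencing, on the other strand. Morc2a was at 24.7 and 20.1 TPM, below Tug1 in both libraries. Reads were spread over several Tug1 isoforms: transcript 202 took 36.5% and transcript 201 32.4% of its counts in replicate 1, against 32.1% and 40.5% in replicate 2.

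The other members among the 20 highest per length lie mostly inside coding genes. Gm46411, inside the zinc-finger gene Rreb1, was at 37.6 and 36.8 TPM. B230319C09Rik, inside Tet3, which encodes an oxidase of methylated cytosine, was at 43.3 and 27.0 TPM. BE692007 meets Ms4a6c, a membrane protein gene, tail-to-tail and was at 32.0 and 38.0 TPM. 4933423P22Rik, inside the receptor phosphatase gene Ptprj, was at 30.2 and 21.2 TPM, and Gm37787, inside the SLAM-family receptor gene Slamf7, at 35.0 and 15.6 TPM. Gm37787 has 72.3% of its exon bases on exons of the other strand.

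Gm7480, inside Lrmda, was at 40.9 and 33.5 TPM, and a further pair of members, 4930405A10Rik and Gm10248, also overlap Lrmda. Gm29361, inside the splicing-factor gene Rbm25, was at 28.6 and 21.8 TPM. Gm13556, inside Dennd1a, an activator gene of the endosomal GTPase Rab35, was at 27.7 and 16.7 TPM. Gm45606, head-to-head with the amino-acid transporter gene Slc43a2, was at 28.1 and 13.5 TPM. For 4930430E12Rik and Gm15445, no coding gene lies opposite, and they were at 41.0 and 16.9 TPM and at 14.8 and 23.7 TPM. Replicate 1 was the higher library for the first and replicate 2 for the second.

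The imprinted members were Kcnq1ot1 and Airn, which are expressed from the paternal allele and silence neighbouring genes in cis. Kcnq1ot1 is annotated as 1 unspliced exon of 93092 bases on chromosome 7 (143203458 to 143296549, minus strand). It had 15648 and 16618 counts, more than any other member, but only 8.87 and 7.73 TPM. Its host Kcnq1, a potassium channel gene, was at 0.12 and 0.13 TPM, from 3 and 7 counts. Airn, on chromosome 17 (12741311 to 12860136, plus strand), was at 11.8 and 10.2 TPM from 174 and 205 counts. The overlapped Igf2r, which encodes the receptor for IGF2 and mannose 6-phosphate, was at 36.2 and 30.9 TPM. Airn shares no exon base with opposite-strand exons, and 3597 bases of its 118826-base span are annotated as exon. Counts on introns are not in this value.

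Well-known antisense and bidirectional noncoding RNAs ranged from abundant to absent. Of 28 listed antisense or bidirectional noncoding RNAs, Kcnq1ot1, Airn and Uckl1os are members. Uckl1os, head-to-head with the uridine-cytidine kinase-like gene Uckl1, was at 6.37 and 4.21 TPM, against 73.8 and 43.0 TPM for Uckl1. Listed genes of other annotated classes included Dleu2, at 163 and 108 TPM, Mir22hg, at 131 and 73.3 TPM, Jpx, at 8.70 and 8.18 TPM, Ftx, at 7.19 and 6.46 TPM, and Mir155hg, at 7.17 and 2.83 TPM. Among listed genes of the antisense class that are not members, Hoxb3os had 18.3 and 15.5 counts, Nespas 3 and 5, Dnm3os 4 and 9, Hotairm1 2 and 0, and Gm16685 0 and 2. Wt1os, Emx2os and Evx1os had 0 in both, which allows up to 0.165 and 0.161 CPM. The second quantification nevertheless put Wt1os at 4.75 and 6.63 TPM.

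A further 4 members were picked for their familiar names after their values were seen. Nron, named as a repressor of the calcium-regulated factor NFAT, was at 1.83 and 1.55 TPM. Flicr, which lies near Foxp3 and is known from regulatory T cells, was at 2.34 and 2.19 TPM. Gt(ROSA)26Sor, the locus used for transgene insertion, was at 17.8 and 8.66 TPM. Dnmt3aos, inside the DNA methyltransferase gene Dnmt3a, was at 12.4 and 7.34 TPM, against 188 and 106 TPM for Dnmt3a.

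Beside coding genes of the early TLR4 response, 4 members were found among partners or starts within 5 kb of 86 listed genes. They are Gm40578 at Tnfaip2, Gm20234 at Slfn2, Gm10634 at Bcl2a1d and Gm26885 at Pim1. Gm40578 stood at 170.5 and 94.5 TPM, against 989.5 and 323 TPM for Tnfaip2. Gm20234 stood at 49.7 and 26.4 TPM, against 234 and 121 TPM for Slfn2, a schlafen gene of immune-cell quiescence. In all 4 pairs of the first quantification both transcripts were lower per length in replicate 2, and the coding gene was the higher one in each library. The second quantification turned this for Gm20234, at 121 and 143 TPM, against 87.9 and 91.4 TPM for Slfn2, so the antisense gene was then the higher one and both were higher in replicate 2. Over all 9422 genes with 100 or more counts in both, the median log2 TPM ratio of replicate 2 over replicate 1 was -0.39 in the first quantification and 0.55 in the second. Of these genes, 7909 were lower in replicate 2 in the first quantification and 8629 were higher in the second. A shared direction on the TPM scale was therefore common to most genes. With first counts scaled between libraries by TMM, the median log2 ratio over these genes was -0.02. On that scale the ratios were -0.48 for Gm40578 and -1.16 for Tnfaip2, and -0.54 for Gm20234 and -0.60 for Slfn2. They were -1.06 for Gm10634 and -1.02 for Bcl2a1d, and -2.13 for Gm26885 and -0.41 for Pim1. The cause of these ratios was not tested.

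Gm10634 spans Bcl2a1d, an anti-apoptotic BCL2-family gene, and was at 14.1 and 5.27 TPM, against 43.3 and 16.5 TPM for the coding gene. Of the 31-base words of Gm10634, 44.4% also occur in other genes in the same orientation, and those genes were not identified here. Its posterior standard deviation in the first quantification was 0.075% and 0.27% of its counts. Gm26885, head-to-head with the kinase gene Pim1, fell to 1.96 TPM in replicate 2, against 10.9 TPM in replicate 1, while Pim1 was at 126 and 210 TPM in those libraries. In the second quantification the TPM of Gm26885 was higher in replicate 2, at 18.2 TPM, against 12.7 TPM in replicate 1. Its counts were lower in replicate 2 in both quantifications, with 658 and 144 in the first and 1032 and 638 in the second. Only the direction on the TPM scale therefore turned with the quantification. Transcript 203, of 417 bases, took 92 and 147 of the second counts and 0 of the first, and its part in the TPM values was not tested. Nearly all of the first counts of Gm26885 (99.7% and 99.3%) were on transcript 202. None of the members lay at a listed macrophage marker gene.

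**Figure D2:**
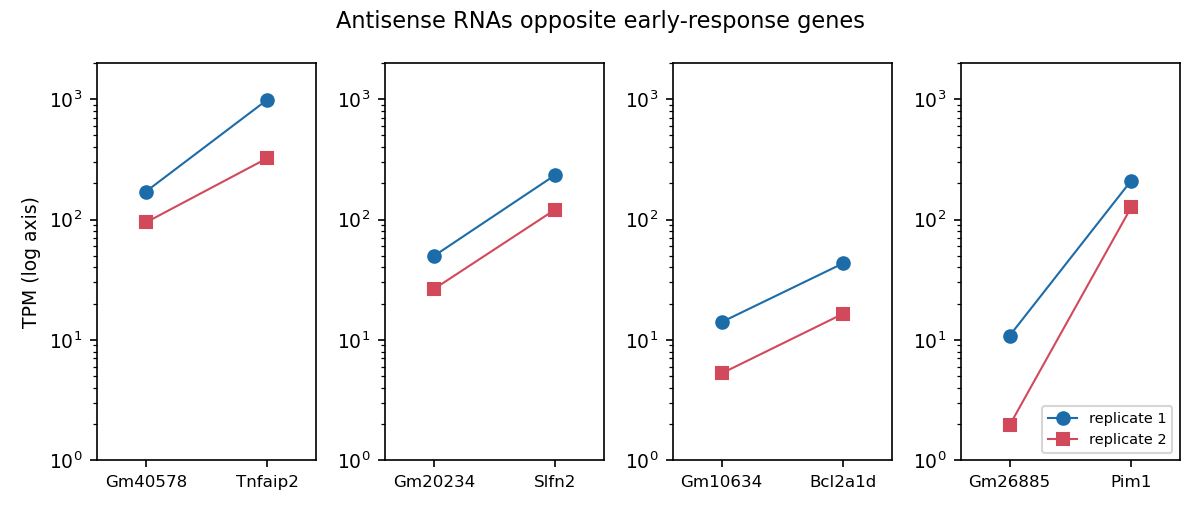
Level per length (TPM, log axis) of the 4 members beside early-response genes, each on the left of its panel, and of the coding gene on the right, with circles and a line for replicate 1 and squares for replicate 2. Every coding gene lies above its antisense member, and the gap is widest for Gm26885 and Pim1.

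By position, 158 of the 162 members overlap a coding gene on the other strand, with 152 distinct partners. The antisense RNA lay inside the partner in 83, met it tail-to-tail in 37, overlapped it head-to-head in 31 and spanned it in 7. Median levels were 7.11 TPM inside, 4.84 TPM tail-to-tail, 5.68 TPM head-to-head and 4.46 TPM for those that span. The start was within 1 kb of a coding start for 47 members, and for 46 of these the coding gene is on the other strand. Members had a median of 2763 exon bases, and their median GC content was 47.5% (33.6 to 59.3%). The 26 with 1 exon in every transcript had a median of 3.84 ± 0.364 TPM, and the 136 spliced ones 6.38 ± 1.13 TPM (SD, n = 2).

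Antisense RNAs were usually the scarcer strand. Over the 158 pairs the median level was 5.75 ± 0.994 TPM for the antisense members and 27.2 ± 7.29 TPM for their partners (SD, n = 2). The median of the paired differences, antisense minus partner on the log2(TPM + 0.1) scale, was -2.01 ± 0.152 (SD, n = 2), with quartiles of -2.91 and -0.70. The antisense RNA was lower in both libraries in 127 pairs, higher in both in 24, and on different sides in 7. In 37 pairs it was more than 8-fold lower, and in 25 pairs the strands were within 2-fold. The minimum of 100 counts held for the antisense genes and not for the partners, which bears on these medians, and 12 partners were under 1 TPM.

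**Figure D3:**
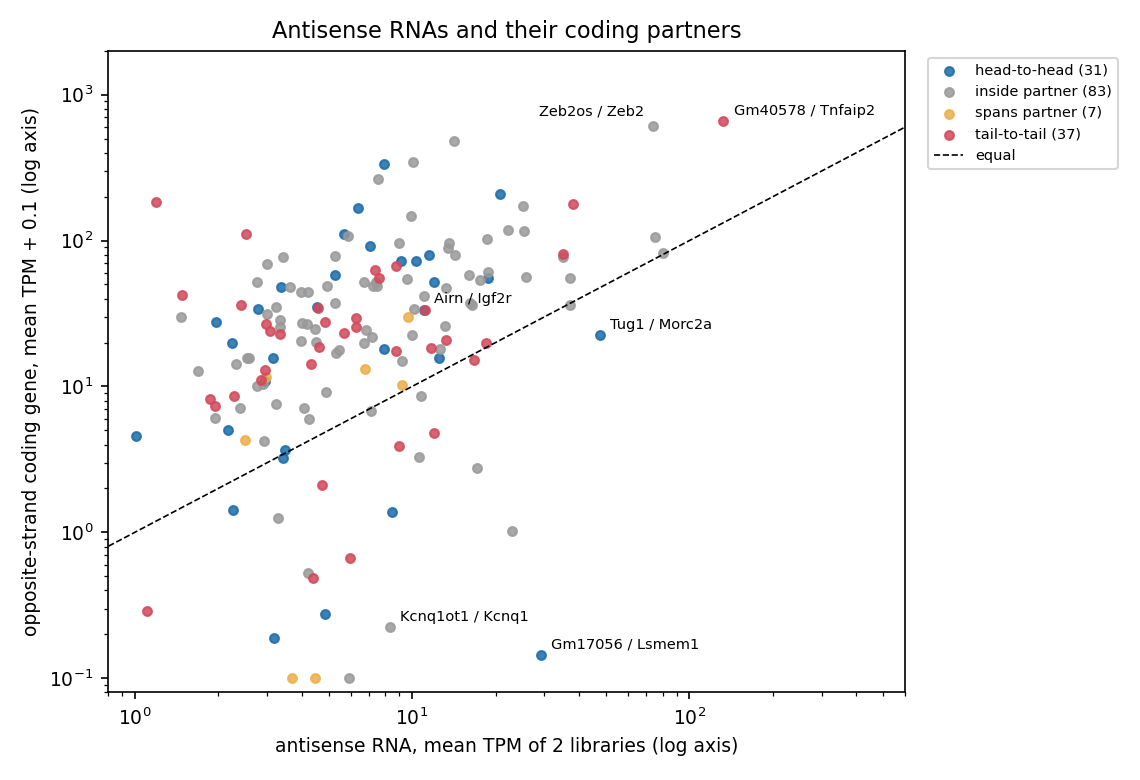
Mean level of each antisense member (TPM, log axis, horizontal) and of its opposite-strand coding partner (TPM + 0.1, log axis, vertical) for 158 pairs, coloured by arrangement, with a dashed line of equal levels. Most points lie above the line, where the partner is the more abundant, and Tug1, Kcnq1ot1 and Gm17056 lie below it.

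Among the 27 members above their partner by the mean log2 difference, 12 partners were under 1 TPM on average and 15 were at 1 TPM or more. Gm17056 was at 30.98 and 27.2 TPM, against 0.05 and 0.04 TPM for Lsmem1, a difference of 7.65 ± 0.0623 on the log2(TPM + 0.1) scale (SD, n = 2). Gm26740, inside the NKG2D ligand gene Raet1e, was at 27.7 and 18.2 TPM, against 0.95 and 0.91 TPM. Etohd2 was at 5.93 and 5.94 TPM, Gm26642 at 4.44 and 4.49 TPM and Gm47079 at 5.84 and 1.54 TPM, while their partners Gm49354, Elf3 and Icam4 are listed at 0. Etohd2 has 30.9% of its exon bases on opposite-strand exons, and its exon-overlapping coding gene Tut7 was higher than Etohd2, at 99.4 and 75.7 TPM. Mypopos is an example with a partner above 1 TPM. It was at 11.8 and 9.37 TPM, against 3.81 and 2.60 TPM for Mypop. Of the 27 members, 5 share no exon base with an exon on the other strand.

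The widest differences in the other direction had partners with very high levels. E530011L22Rik was at 1.43 and 0.96 TPM, against 216 and 153 TPM for Nktr, a cyclophilin-related gene, a difference of -7.16 ± 0.0239 on the log2(TPM + 0.1) scale (SD, n = 2). Gm7008 lies inside Ifrd1, a transcriptional regulator gene at 611 and 352 TPM, and was itself at 24.6 and 3.77 TPM. 4930404I05Rik at Paxbp1 differed by -5.40, Gm37305 at the cyclin gene Ccnl1 by -5.35 and Gm16262 at the endosomal sodium-proton exchanger gene Slc9a9 by -5.11.

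Across pairs, the levels of both strands were loosely related. The Spearman correlation of log2 TPM was 0.419 and the Pearson correlation 0.346 over 158 pairs, which share libraries and, in part, exons. For the 134 pairs whose partner also had 100 counts in both libraries, the log2 ratios of replicate 2 over replicate 1 had a Spearman correlation of 0.286 and a Pearson correlation of 0.300. These are descriptions across genes, which are not independent replicates.

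The libraries ranked the members alike, with a Spearman correlation of 0.904 between TPM values over 162 members. After TMM scaling of rounded counts, members had a median log2 ratio (replicate 2 over replicate 1) of 0.017, with 82 above 0 and 80 below, and the 9422 genes with 100 or more counts in both had -0.021. On the TPM scale the medians were -0.37 over members and -0.39 over all genes, and 36 members were higher in replicate 2. In the second quantification the TPM medians were 0.55 over members and 0.55 over all genes, and 145 members were higher in replicate 2. The direction of TPM differences between the libraries therefore turned with the quantification. The spread was wider over members, with a median absolute log2 ratio of 0.33, against 0.24 over all genes and 0.30 over lincRNA genes. Median levels also differed, at 5.96 TPM over members, 11.7 TPM over all genes and 6.88 TPM over lincRNA genes. Of the 162 members, 85 were under 200 counts in at least 1 library. Low counts carry more counting error, and its part in this spread was not tested. No test was made between these groups.

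Over 2-fold higher in replicate 2, with the counting interval clear of 0, were 2 members (1.23%), against 1.09% of all 9422 genes and 2 of 140 lincRNA genes (1.43%). Over 2-fold lower were 9 members (5.56%), against 1.48% of all genes and 8 of 140 lincRNA genes (5.71%). The members' share lay close to that of lincRNA genes in both directions. Gm7008 had 102 counts in replicate 2, against 542 in replicate 1, a log2 ratio of -2.34 (95% interval -2.67 to -2.04), while its partner Ifrd1 had a log2 ratio of -0.47. Gm26885 had 144 counts, against 658, a ratio of -2.13 (-2.40 to -1.87), and Pim1 had -0.41.

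The other members lower in replicate 2 were Gm26982 at the ghrelin gene Ghrl (-1.69), Gm47079 (-1.57), Zmiz1os1 (-1.31), Gm10634 (-1.06), Tmcc3os (-1.05), Igf1os (-1.04) and Gm26674 (-1.02). Zmiz1os1, head-to-head with the coactivator gene Zmiz1, had 330 counts, against 856, and Zmiz1 had a log2 ratio of 0.22. Igf1os had 174 counts, against 373, whereas its partner Igf1, a growth factor gene, had a log2 ratio of 0.66. In both pairs the ratios of the strands had opposite signs. With counts of the second quantification, Gm7008, Gm26982, Gm47079, Zmiz1os1 and Tmcc3os were again over 2-fold lower, whereas Gm26885 (-0.95), Gm26674 (-0.93), Gm10634 (-0.89) and Igf1os (-0.78) were not.

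The members higher in replicate 2 were Gm6225 and Gm15445. Gm6225, head-to-head with Crem, a cAMP-response transcription factor gene, had 480 counts, against 206, a log2 ratio of 1.28 (95% interval 1.04 to 1.52), and Crem had 0.91. Gm15445 had 223 counts, against 111, a ratio of 1.06 (0.73 to 1.41). Neither was over 2-fold higher with counts of the second quantification, which gave 0.67 for Gm6225 and 0.70 for Gm15445. Below 2-fold in the first, the largest further ratios were 0.98 for 4930539J05Rik at the ubiquitin-conjugating enzyme gene Ube2d3, 0.96 for Gm9917 at Rassf1 and 0.95 for Gm42435 at Cdk6.

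**Figure D4:**
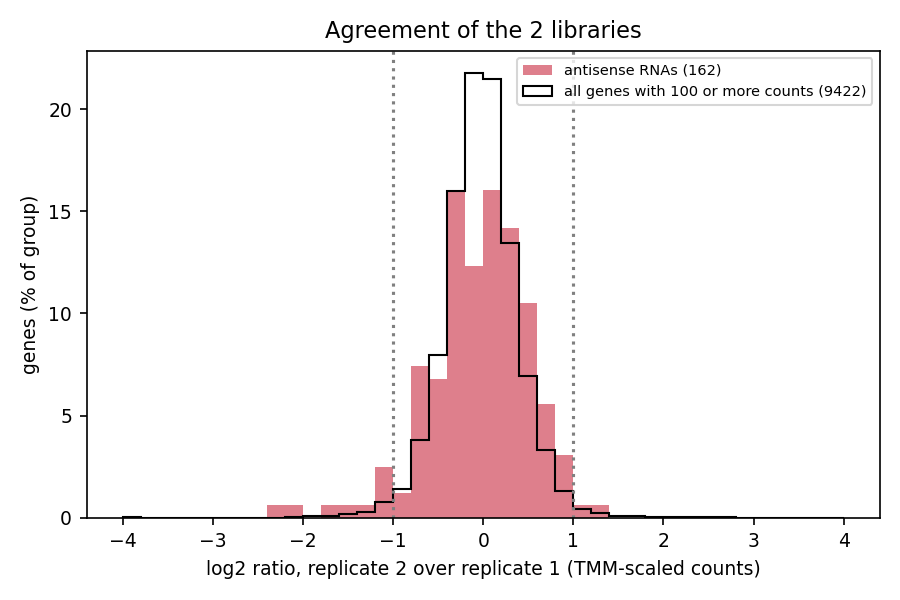
Distribution of the log2 ratio of replicate 2 over replicate 1 (TMM-scaled counts, horizontal) as the percent of genes in each bin, filled bars for the 162 members and an outline for all 9422 genes with 100 or more counts in both, with dotted lines at 2-fold. The members form a broader distribution around the same centre, with 9 members beyond the left line and 2 beyond the right one.

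The deposited second quantification ranked the members much as the first, with a Spearman correlation of 0.859 between mean TPM values, and gave more counts. Its counts were above the first by a median log2 of 0.57 in replicate 1 and 0.78 in replicate 2, or 0.68 over both, against 0.53 for all 9422 genes. In 30 members they were over 2-fold above the first in both libraries, and in 1, Gm26716, over 2-fold below in both. The widest gaps were in Gm48754, with 2501 and 4697 counts, against 138 and 145 in the first, and Gm4117, with 4175 and 5227, against 313 and 477. Gm20234 had 3764 and 3432, against 481 and 318, and Gm28370 had 1300 and 1264, against 191 and 199. Airn had 946 and 1086, against 174 and 205.

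Shared sequence was measured for the same genes. In Gm48754, 94.6% of its 31-base words also occur in another gene in the same orientation, and the values were 20.2% in Gm20234, 4.70% in Gm4117, 4.24% in Gm28370 and 0.387% in Airn. Over 20% of words were shared in the same orientation in 8 members, which include Gm27177 at 100%, and in the opposite orientation in 42, while 22 members shared none. The part of shared sequence in the gap between the quantifications was not tested.

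**Figure D5:**
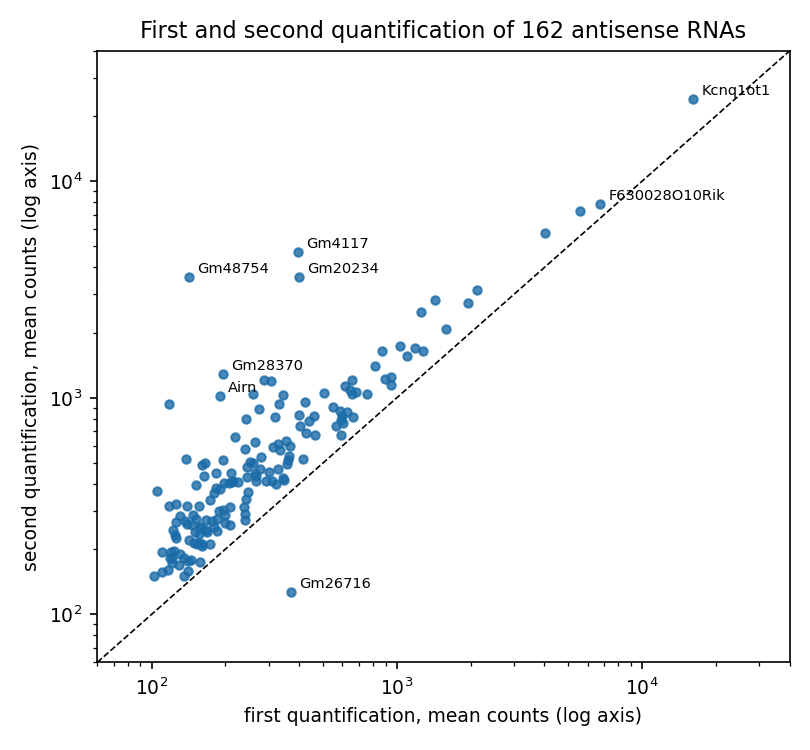
Mean counts over both libraries in the first (horizontal) and the second quantification (vertical), both on log axes, for the 162 members, with a dashed line of equal counts. Nearly all members lie somewhat above the line, Gm48754, Gm4117, Gm20234 and Gm28370 far above it, and Gm26716 below it.

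At the minimum itself, the members just inside were Gm26586, with 150 and 101.0 counts, AC166172.3, with 120 and 101.1, and Gm16575, with 141 and 101.2. Just outside were Gm14540, with 114 and 99.8 counts, Gm35715, with 124 and 97.0, and 4833413G10Rik, with 96.7 and 126. The genes on both sides of the minimum differ by less than the spread between libraries.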

How the data were processed

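The authors deposited, per gene and transcript, expected counts, FPKM, TPM with its posterior mean, and each isoform's percent of its gene, under RSEM's column names per the file headers (the first quantification). Estimated counts and TPM of a second quantification come from deposited tables with kallisto's column names, per the file headers. Posterior standard deviations of the counts, in the same unit as the counts, were also deposited. The accompanying notes name mm10 and GENCODE M21. Program versions, filters and strand setting: not given in the sources used here.

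The members and lists were chosen with earlier results of these data known. Counts were rounded and scaled by TMM over all mouse genes (edgeR 4.0.16, R 4.3.3). Ratios used a prior count of 0.5 and exact binomial 95% intervals, and shares Clopper-Pearson ones. Without molecular identifiers a read is not an independent molecule, so these intervals hold counting error alone. Pair differences used log2(TPM + 0.1), and the partner is the coding gene with the longest overlap on the other strand. Head-to-head means that both starts lie in the overlap, spanning that the partner lies within the member, and tail-to-tail any other partial overlap. Named were the 20 highest by TPM, the 10 highest by count, the 5 largest and 5 smallest ratios and pair differences, members in or beside the lists, and 3 genes on each side of the minimum. Others named were chosen after their values were seen. Alternatives were library totals, size factors of DESeq2 1.42.0, FPKM, TPM ratios, posterior-mean TPM, the second quantification, other minimums, pseudocounts and prior counts, exon-overlap partners, and leaving out each replicate. Results for members with no opposite-strand exon overlap were added after seeing the data. With 1 group, no comparison between conditions was possible. Simulated data with known changes were used to test the ratio step. Scripts ran under Python 3.11.15 with scipy 1.17.1, pandas 2.3.3, numpy 2.4.6 and matplotlib 3.10.9.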

Additional observations from a re-analysis of the deposited data

How the results depend on the processing

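The number of members turned on the count rule and on the quantification. It was 292 at a minimum of 50, 77 at a minimum of 200 and 556 with the second quantification, which kept 161 of the 162, and 183 to 201 when 1 replicate was left out. The share of counts was 0.539% and 0.400% for the genes at minimums of 50 and 200. Over the original 162 members it was 0.547% with the second quantification and 0.464 to 0.493% without 1 replicate. The median level was 3.82 and 10.4 TPM at those minimums. Over the original 162 members it was 4.84 TPM with the second quantification and 5.18 to 6.72 TPM without 1 replicate. The median log2 ratio over members moved with the scaling: it was -0.015 with DESeq2 size factors (-0.053 over all genes), -0.080 with library totals (-0.12), -0.079 with the second quantification (-0.085) and -0.37 for TPM (-0.39). It was 0.080 over members without opposite-strand exon overlap. The number over 2-fold apart was 7 of 162 with the second quantification (1 higher and 6 lower), against 11, with 5 lower in both and 0 higher in both. Of all 9422 genes, 79 were over 2-fold higher and 149 lower with the second quantification, against 103 and 139 with the first. Gm45479 (-1.02) and Gm26716 (2.79) passed in the second alone. The median pair difference was -1.78 with a pseudocount of 1, -1.81 without exon overlap and -2.11 to -1.90 without 1 replicate. The antisense RNA exceeded its partner in 5 of 48 pairs without exon overlap, against 27 of 158, in 28 with the second quantification, 23 of them in both, and in 24 to 31 without 1 replicate. The cause of these shifts was not tested. Stricter rules also leave fewer genes and pairs. Mean TPM of 42 named members was within 1 SD in 13 with the second quantification, higher in 8 and lower in 21. No paired analysis was possible because the series has 1 group. At 100 counts, counting error alone limits small ratios.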

Other observations

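The quantifications differed in how many noncoding genes they put at 100 or more counts in both libraries. Of 3062 antisense genes, the second put 556 there and the first 162, and 395 passed in the second alone. Of 5854 lincRNA genes the numbers were 692 and 140, with 552 in the second alone, and of 22028 coding genes 10448 and 8274, with 2183 in the second alone. As a share of counts, antisense genes took 1.16% and 1.15% in replicates 1 and 2 of the second quantification, against 0.655% and 0.608% in the first. LincRNA genes took 13.3% and 11.6% in the second, against 15.1% and 13.0% in the first.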
